A study of Mus musculus with 2 samples.

Results

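The cells described here are mature oligodendrocytes of the intact mouse optic nerve that were sequenced deeply enough to be read one by one. They were selected on 2 measured properties: the authors typed them as oligodendrocytes of the uninjured library, and at least 1500 unique molecular identifiers (UMIs, each standing for 1 captured RNA molecule) were recovered from them. Of the 857 uninjured oligodendrocytes, 610 cells (71.2%) met this rule, out of 1369 typed cells of the oligodendrocyte lineage in both libraries. The uninjured library came from wildtype mice of the strain 129S1/SvlmJ, with 5 optic nerves pooled and 6000 cells loaded on the Chromium System. The other library came from the injury site of 5 optic nerves of the same strain, 2 weeks after optic nerve crush (ONC) at an age of 8 weeks. All mice were 10 weeks old by the methods and 56 days old by the labels. The labels also name the crush for both libraries, while the title and the condition given with each cell in the deposited table mark this one as control. With 1 library per condition no value below has a replicate check, all nerves share 1 library, and differences between animals cannot be told apart from differences between cells. The cells were typed before deposit, and only cells of the lineage are in the tables.

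The labels describe a pool of both sexes, and the cells went against this. Xist, the RNA that silences an X chromosome in female cells, gave 1 UMI in the 610 cells, whereas the Y-linked genes Ddx3y, Eif2s3y, Uty and Kdm5d gave 1043 UMIs. By these RNAs 432 cells were male, 0 were female, 1 held both kinds and 177 held neither. In the injured lineage cells Xist gave 0 UMIs and the Y-linked genes 620 UMIs. These calls rest on Xist having been counted, which the tables do not show beyond that 1 UMI, so 0 female cells means that no cell held Xist alone. A comparison of female with male cells could not be made. The libraries shared 0 cell barcodes.

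Oligodendrocytes wrap axons of the central nervous system in myelin, a compacted membrane rich in lipid and in a few proteins. A mature cell keeps renewing this membrane, takes part in iron storage, supplies axons with metabolites and holds axon growth in check through surface proteins such as Mag and Nogo. In brain and spinal cord, mature oligodendrocytes are known to differ in RNA content, with Ptgds, Il33, Klk6 and Hopx among the genes that mark different classes. The optic nerve is almost pure white matter, in which oligodendrocytes sit in rows between the axons of retinal ganglion cells.

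The 5 markers taken here for the type were near universal in the 610 cells. Of these, the paper names only Mag, beside Mbp, as a marker by which oligodendrocytes were identified. The type came from the same RNA counts that are read here, so marker levels describe the selection and are no test of it. Levels are CPM, the UMIs of a gene in all 610 cells per 1000000 of their 3926346 UMIs, with 95% intervals that cover counting error only. Since each RNA molecule gives 1 UMI at its end, CPM does not grow with transcript length. Cldn11, the claudin of the tight junctions between myelin wraps, stood at 4674 CPM (4607 to 4742). Mag, the adhesion protein that faces the axon, stood at 4070.2 CPM (4007 to 4134), and Mog, on the outer face of myelin, at 3274 CPM (3218 to 3331). Apod, a secreted lipid carrier, reached 2750.4 CPM (2699 to 2803), and Aspa, which frees acetate for lipid synthesis, 653.5 CPM (628.5 to 679.3). All 610 cells held at least 2 of the 5 markers and 503 cells held all 5. Mag was found in 99.8% of the cells and Aspa in 89.7%, against 12.1% and 1.72% of the 58 uninjured oligodendrocyte precursor cells (OPCs). OPCs, which are not known to make these RNAs, had a median depth of 2290 UMIs against 4532 UMIs here. After each of the 610 cells was thinned at random to 1500 UMIs, Mag was still found in 98.7% and Aspa in 64.1%.

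RNAs of other cell types were rare but present. At least 2 of 10 astrocyte markers were found in 74 cells, at least 2 of 13 microglia and macrophage markers in 23, at least 2 of 8 endothelial markers in 4, and at least 2 of 9 pericyte and fibroblast markers in 3. At least 2 of 8 Schwann cell markers were found in 114 cells, mostly through Cdh19 with 363 UMIs, while the myelin genes Prx and Pmp2 of that cell were at 0. No cell held 2 of 7 neuronal markers, and Syt1 and Nefm were at 0. At least 2 of 8 OPC markers were found in 44 cells, and the precursor gene Pdgfra gave 8 UMIs in all. At least 2 of 10 markers of newly formed oligodendrocytes were found in 448 cells, through Enpp6 with 2085 UMIs and Bcas1 with 1934 UMIs, and Casr was at 0. Scrublet, which looks for droplets holding 2 cells, marked 10 of the 610.

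Just around the UMI threshold the cells had near levels of most markers. The 50 cells nearest above it held 1510 to 1934 UMIs each and the 50 nearest below it 1235 to 1495 UMIs. Mag stood at 4945 CPM in the 50 above and at 4580 CPM in the 50 below, and Cldn11 at 2801 and 2538 CPM. Mog stood at 2593 CPM above and 1940 CPM below, and Aspa at 772.2 and 554.2 CPM.

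Myelin and iron genes were prominent among the most abundant RNAs of the 610 cells. Outside the mitochondrial and ribosomal genes and unnamed gene models, the 20 most abundant RNAs began with the nuclear RNA Malat1 at 60382 CPM (60139 to 60625). Fth1, the ferritin heavy chain that stores iron, stood at 21895 CPM, above Mbp, whose protein compacts myelin, at 7811 CPM. Mal, a proteolipid of the myelin membrane, reached 7488 CPM. Trf, transferrin, which carries iron and is made by oligodendrocytes in the brain, reached 7142 CPM (7058 to 7226). Next came Tmsb4x, which binds actin monomers, at 5824 CPM, and Cnp, an enzyme of the myelin channels, at 5412 CPM. Aplp1, Car2, Ptgds, Actb, Stmn1 and Gpm6b lay between 3112 and 4314 CPM, and Mobp and Itm2b at 2850.0 and 2646.5 CPM. Car2 is the carbonic anhydrase of oligodendrocytes, Ptgds makes prostaglandin D2, and Stmn1 loosens microtubules.

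Gene lists show how this RNA was divided by function. The 17 myelin protein genes gave 8.34% of all UMIs, and each of the 17 was found in at least 10% of the cells. Their share in a single cell ran from 2.26% to 15.8% with a median of 7.77%. The same list gave 0.655% of the UMIs of OPCs and 1.64% of those of the 44 uninjured newly formed oligodendrocytes. The 19 measured genes for iron, detoxification and secreted carriers gave 4.94%, with Fth1, Trf, Car2 and Ptgds as the most abundant. The 26 lipid and cholesterol enzymes gave 1.20%, led by the desaturase Scd2 at 2627 CPM, by Hmgcs1, an early step of cholesterol synthesis, at 1531 CPM, and by Ugt8a, which makes galactosylceramide, at 1459 CPM. Slc40a1, the iron exporter, Fads2 and Cntf were at 0 UMIs, a count that allows up to 3.

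Axon-facing functions took smaller shares. Axon growth inhibitors gave 0.815% of UMIs, with Rtn4 (Nogo) at 1647 CPM in 98.0% of the cells, Efnb3, a repulsive ephrin, at 571.8 CPM and Omg at 162.5 CPM. Genes of adhesion between axon and glia gave 0.486%, with the tetraspanin Tspan2 at 1675 CPM, Cntn2, a contactin of the juxtaparanode, at 565.4 CPM, and Nfasc, which holds the paranode, at 333.1 CPM. Genes of axon support and ion transport gave 0.350%. Among them the deacetylase Sirt2 stood at 757.7 CPM, the potassium channels Kcna1 and Kcnj10 at 638.8 and 285.5 CPM, and Slc16a1, the lactate transporter MCT1, at 86.9 CPM (77.9 to 96.6). Of the transcription factors of the lineage, Zeb2 at 915.1 CPM, Nkx6-2 at 618.1 CPM, Olig1 at 541.5 CPM, Myrf at 379.7 CPM and Sox10 at 342.3 CPM were well covered. Tcf7l2, a factor of newly forming cells, stood at 14.8 CPM (11.2 to 19.1). Nkx6-2 and the receptor Gpr37 were found in 81.1% and 92.5% of the cells and at 0 UMIs in the OPCs.

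Depth separated the cells into 2 humps. UMIs per cell ran from 1510 to 34653, with 80 cells between 3162.3 and 3981.1 UMIs, 33 between 5011.9 and 6309.6, and again 80 in the bin that ends at 12589.3. The cells were ordered by UMIs and divided into 3 tiers, a shallow one of 204 cells with 1510 to 3250 UMIs, a middle one of 203 cells with 3252 to 7941 UMIs, and a deep one of 203 cells with 8015 to 34653 UMIs. Malat1 took a median of 9.68% of a shallow cell's UMIs and 4.50% of a deep cell's. Ribosomal protein RNAs went the other way, from 2.27% to 5.73%. The plot of depth and composition shows that shallow cells also scattered more, with Malat1 from 0% to 37.4% in the shallow tier and from 1.51% to 15.2% in the deep tier.

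**Figure D1:**
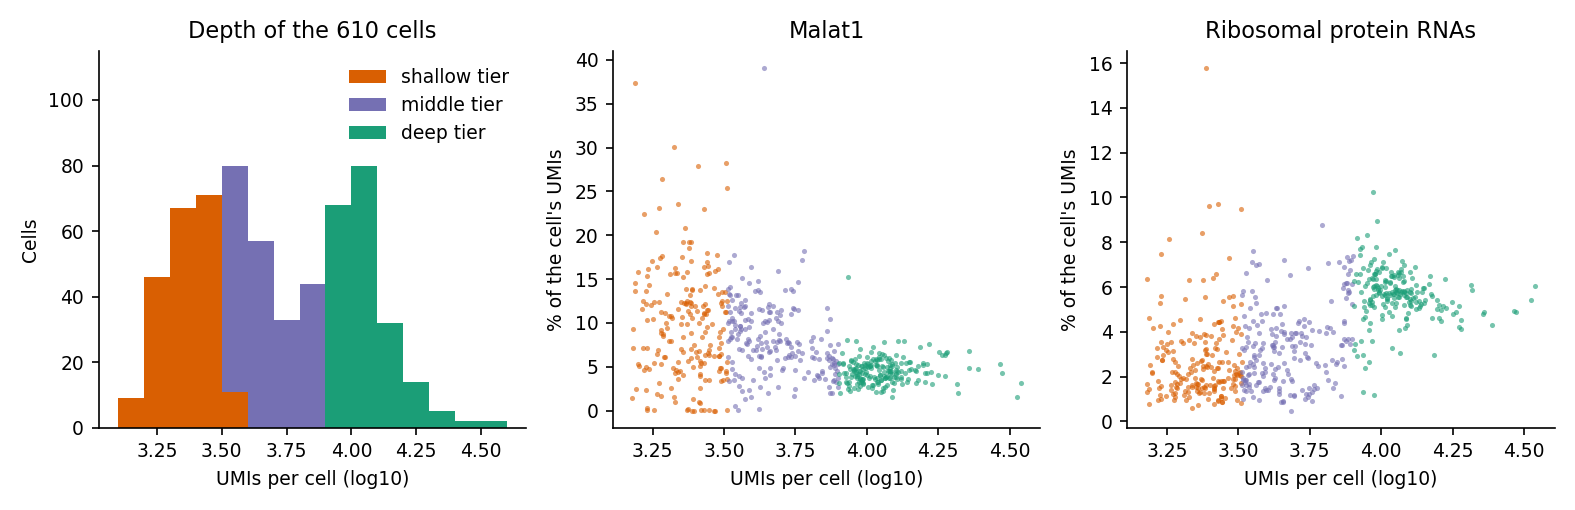
The left panel counts the 610 cells by UMIs per cell (log10 axis), colored by tier of depth, and the other panels plot for each cell the percent of its UMIs from Malat1 and from ribosomal protein RNAs against its UMIs. The histogram has 2 humps, and the median Malat1 share is 9.68% in the shallow tier and 4.50% in the deep tier, while the ribosomal median is 2.27% and 5.73%.

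Between the deep and the shallow tier, whole functions differed together. A ratio of CPM was formed wherever a gene had 50 or more UMIs in the sum of both classes, which 6447 genes had, and a gene was called at 2-fold or more either way. At least 2-fold higher in the deep tier were 14.8% of these genes, and at least 2-fold lower were 17.3%. These are 951 and 1116 genes, and the balance turned to 1127 and 925 after division by the median ratio of all genes, which was -0.10 on the log2 scale, and to 562 and 264 with at least 200 summed UMIs. Of 82 nuclear genes of oxidative phosphorylation tested, 69 were higher and 0 lower, with a median of 1.26 on the log2 scale, led by Cox4i1 and Cox7c, both subunits of the last respiratory complex. Of 88 cytosolic ribosomal protein genes, 48 were higher and 2 lower (median 1.02). Of the 13 mitochondrially encoded RNAs, 0 passed 2-fold in either direction, and their median was -0.53. Nuclear and mitochondrial genes of the respiratory chain thus stood on different sides of the median gene.

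Nuclear RNAs and several receptor genes were higher in the shallow tier. Of 5 nuclear or long noncoding RNAs tested 4 were at least 2-fold lower in the deep tier. Neat1, which builds nuclear paraspeckles, stood at 2517 CPM in the shallow and 487.8 CPM in the deep tier, and Kcnq1ot1 at 485.5 and 217.8 CPM. Of 11 trophic, synaptic and receptor genes 6 were lower and 0 higher, among them the growth factor receptor Igf1r (155.0 and 63.2 CPM). Of 11 genes of axon-glia adhesion and the paranode 3 were lower, Nfasc, Dlg1 and Cntn2, and 1 was higher, Ninj2, with a list median of -0.15 close to that of all genes. Cntn2 stood at 1074 CPM in the shallow and 419.7 CPM in the deep tier. Complement gene C4b stood at 2484 CPM in the shallow and 955.0 CPM in the deep tier. The lowest ratios were those of Agrn, the basement membrane protein agrin (136.4 and 13.1 CPM), Hdac7, Pkd2, Nod1 and Msantd2, with ratios of 0.096 to 0.16. The highest ratios were those of Ercc1, Tubb2b, Nop16, Ascc1 and Gstp2. These rest on 1 or 2 UMIs in the shallow tier, so that the ratio of Ercc1, for example, was 15.7 with an interval of 2.74 to 627.3.

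Genes that were higher in the deep tier had short transcripts and lay in short genes. Their median transcript length was 1024.5 bases, against 3370.0 bases for genes higher in the shallow tier and 2072.5 bases for all genes tested. The gene span on the genome had medians of 8.74 kb, 55.96 kb and 26.4 kb in the same order. Lengths were found for 98.1%, 96.0% and 97.9% of these genes. The astrocyte markers made up 0.0213% of UMIs in the shallow tier, 0.0188% in the middle tier and 0.0185% in the deep tier, and the Schwann cell markers 0.0302%, 0.0223% and 0.0156%. Their part in these differences was not tested.

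Myelin RNAs did not move as one block along depth. Of 17 myelin protein genes 2 were at least 2-fold higher in the deep tier, a share near the 14.8% of all genes, and 0 were lower. Ermn, which encodes ermin of the myelin cytoskeleton, was one of them, with 1114 CPM in the shallow, 1807 in the middle and 2255 CPM in the deep tier, a ratio of 2.02. Mbp stood at 10203, 7442 and 7488 CPM, and Mobp at 2872, 2509 and 2986 CPM, so neither passed 2-fold. Heat shock and chaperone genes had 4 of 13 higher and 0 lower, with the small heat shock protein Cryab at 797.5 CPM in the shallow and 2130 CPM in the deep tier. As the plot of the gene lists shows, the myelin share was 6.04% in the shallow, 7.77% in the middle and 9.03% in the deep tier.

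**Figure D2:**
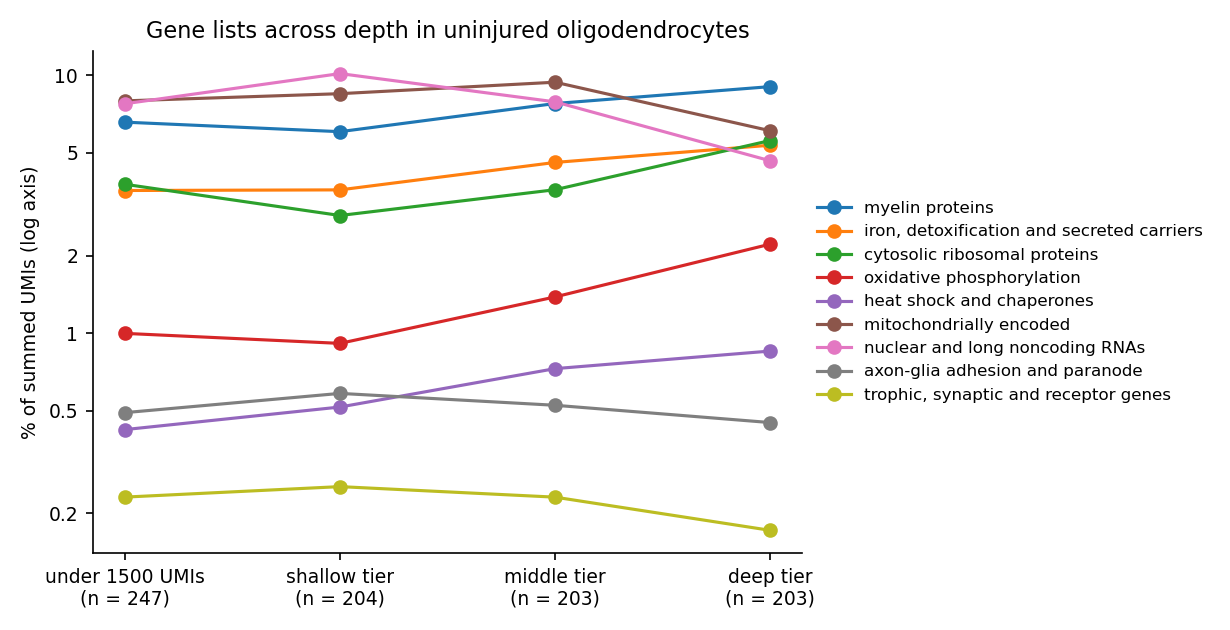
Percent of summed UMIs (log axis) taken by 9 gene lists in the uninjured oligodendrocytes under 1500 UMIs and in the shallow, middle and deep tier of the 610 cells; each point is 1 sum over the cells of that class. Oxidative phosphorylation takes 0.913% in the shallow and 2.21% in the deep tier, and nuclear and long noncoding RNAs 10.15% and 4.66%.

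Cells below the UMI threshold differed from the 610 in a related but not equal way. The rule chose on depth, so these values are a description. There were 247 shallower uninjured oligodendrocytes with a median of 851 UMIs, and 7526 genes had at least 50 UMIs in both sums together. Of these, 12.6% were at least 2-fold higher in the 610 cells and 15.3% at least 2-fold lower, and the median ratio was -0.11 on the log2 scale. After division by that median 1141 genes were higher and 923 lower, in place of 945 and 1152. Mbp stood at 15751 CPM in the shallower cells and 7811 CPM in the 610, a ratio of 0.50, and Mobp at 4040 and 2850.0 CPM. Ermn went the other way, with 950.5 CPM in the shallower cells and a ratio of 2.10. The RNAs of Mbp and Mobp are known to be carried into the myelin sheath. Kif5a, a microtubule motor, had a ratio of 0.26, and Neat1 one of 0.20. Bcas1, an early myelin gene, stood at 1502 CPM in the shallower cells and at 492.6 CPM in the 610. Of the class genes of mature oligodendrocytes 6 of 16 were higher in the 610 and 0 lower, among them Klk6 with a ratio of 3.05 and Apod with 2.08. The extremes were the zinc transporter Slc39a14 (0.14), Camk2g, Cdc14b, Zfp950 and Rapgef4 on the low side, and Rnf34, Psph, Hdhd2, Bcl10 and Mrpl40 on the high side, the latter with 1 or 2 UMIs in the shallower cells.

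To compare cells with each other at equal depth, each was thinned to 1500 UMIs and the Fano factor of each gene was computed, the variance over the mean, which is 1 when counting is the only source of spread. Of 2623 genes with a mean of at least 0.1 UMIs, 50 (1.91%) had a Fano factor over 2. Among the 15 most variable named genes were Malat1, Ptgds, Fth1, Tmsb4x, Trf, Neat1, Fos, Klk6, Mbp, C4b, Mal, Apod, Cd9 and Actb. The highest value was that of Malat1 (50.7), which also differed with depth. Fth1, with a Fano factor of 8.54 and a deep to shallow ratio of 1.62, correlated most with Tmsb4x, with r = 0.66 across the 610 cells, which share 1 library and its depth range. Ptgds stood out at a mean of only 5.50 UMIs, with a Fano factor of 18.3. Its median was 1 UMI, its 90th percentile 19 and its maximum 73 UMIs. Of the 17 myelin protein genes 8 were over 2, of the 81 ribosomal protein genes tested 0, and of the 71 nuclear genes of oxidative phosphorylation 0. At equal relative spread the Fano factor is higher for abundant genes, such as Mbp and Mal with means of 12.8 and 10.4 UMIs. These counts therefore do not compare relative spread between the lists.

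**Figure D3:**
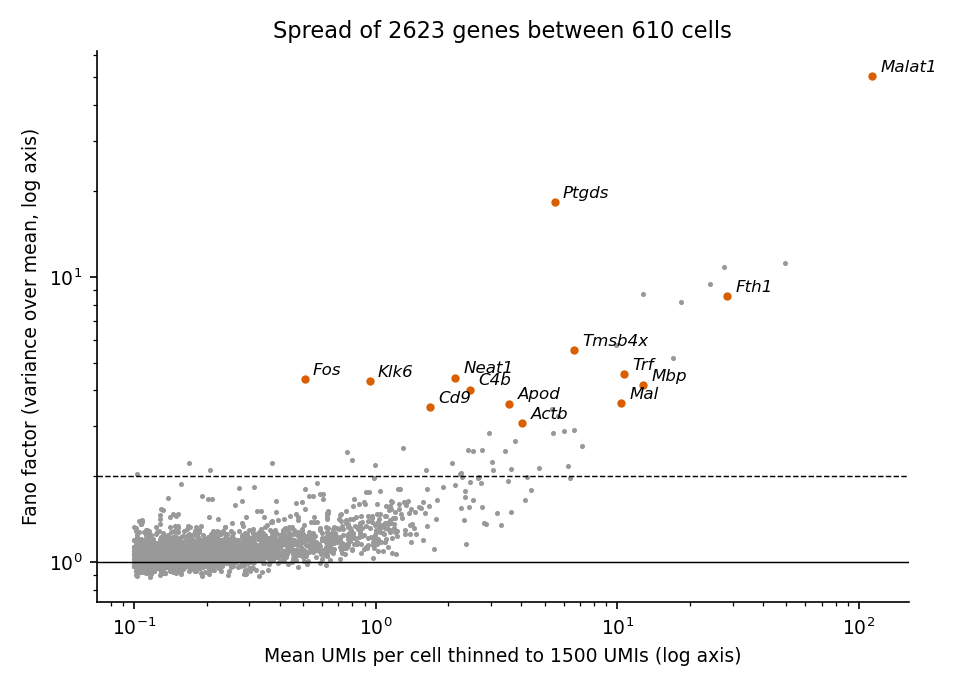
Fano factor against mean UMIs per cell for the 2623 genes with a mean of at least 0.1 in 610 cells thinned to 1500 UMIs, both on log axes; the solid line marks 1 (counting alone), the dashed line 2, and orange points 14 of the 15 most variable named genes. Most genes lie between the lines, and Ptgds (18.3), Fos (4.40) and Klk6 (4.33) stand far above genes of the same mean.

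Ptgds and Klk6 marked opposite ends of a range within these oligodendrocytes. Ptgds encodes prostaglandin D2 synthase and lies on the minus strand of chromosome 2 of GRCm38 (25466709 to 25470046). Klk6 encodes a secreted serine protease that can cleave myelin proteins and lies on the plus strand of chromosome 7 (43824499 to 43832030). In the deep tier, thinned to the lowest depth in it, 8015 UMIs, both genes covered a wide range. Ptgds had a median of 8 UMIs, a 90th percentile of 101.8, a maximum of 266 and 56 of 203 cells at 0. Klk6 had a median of 1 UMI, a 90th percentile of 19.8, a maximum of 63 and 94 cells at 0. The Fano factors at this depth were 82.4 for Ptgds and 16.1 for Klk6. At least 4 UMIs of both genes were found in 17 cells, of Ptgds alone in 97, of Klk6 alone in 59 and of neither in 30. Their correlation was r = -0.60 across the 203 cells, and -0.60 again without the cells that held at least 2 markers of astrocytes, microglia, endothelial cells, pericytes or neurons. It was -0.28, -0.36 and -0.45 in the shallow, middle and deep tier when every cell was thinned to 1500 UMIs.

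The genes at both ends were compared with the OPCs of the same library. They were not compared 1 by 1 with its 44 newly formed oligodendrocytes. The class genes of mature oligodendrocytes gave 1.97% of UMIs in the 610 cells, 0.557% in OPCs and 0.881% in newly formed oligodendrocytes. Ptgds was found in 65.9% of the 610 cells and in 24.1% of the OPCs, with 3704.5 CPM against 93.4 CPM. Klk6 was found in 44.6% and 3.45%, with 766.9 CPM against 11.7 CPM. Il33, which encodes an alarm cytokine kept in the nucleus, was found in 33.6% and 1.72%, and Hopx, an unusual homeodomain gene, in 37.2% of the cells and in 0 of 58 OPCs. After thinning to 1500 UMIs the shares in the 610 cells were 53.9% for Ptgds, 30.7% for Klk6, 18.0% for Il33 and 18.5% for Hopx. S100b at 682.6 CPM and Cd9 at 1119 CPM were not set apart from OPCs in this way, since OPCs held 507.8 and 3450 CPM.

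The window before the start of Ptgds is shown because this gene had the highest Fano factor of all genes in the deep tier. It covers chr2:25469750-25469999 on the minus strand (GRCm38.p6, RefSeq), is written 5′ to 3′ and ends at the last base before the RefSeq start, with capitals marking a match to the 7-letter AP-1 element.
Ptgds: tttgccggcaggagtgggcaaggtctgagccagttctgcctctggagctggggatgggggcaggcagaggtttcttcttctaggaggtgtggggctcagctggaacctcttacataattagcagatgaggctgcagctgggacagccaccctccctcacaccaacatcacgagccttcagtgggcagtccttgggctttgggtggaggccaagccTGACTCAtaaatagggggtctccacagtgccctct
The match begins 35 bases before the start. The letters searched were TGAGTCA and, for the other strand, TGACTCA, and 5.20% of the 32851 RefSeq promoter windows hold a match. This search at Ptgds was chosen after its values were seen, and a match of letters does not show a binding site.

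Many genes lined up with this range. With Ptgds went Il33 (r = 0.68 in the deep tier), the tetraspanin Cd9 (0.66), Opalin, a membrane protein of oligodendrocytes (0.63), the creatine kinase Ckb (0.62), Cd63, Jph4, Qdpr and Tspan2. On the other side were Apod (-0.69), Enpp6, a phosphodiesterase that frees choline (-0.67), the calcium-binding protein S100b (-0.66), Spock3 and the glutathione transferase Mgst3 (-0.62). S100b and Opalin had the lowest r of the pairs below, -0.78. S100b went with Mgst3 (0.76), with Ldhb, a lactate dehydrogenase subunit (0.71), with the ubiquitin hydrolase Uchl1 (0.68) and with Klk6 (0.66). Among 10 genes picked for each side after these values were seen, all 45 pairs within a side had positive r, with medians of 0.52 and 0.51. All 100 pairs across the sides had negative r, with a median of -0.51. Since the genes were picked by such values, these signs are a description and no test. At 1500 UMIs in all 610 cells the medians were 0.29, 0.23 and -0.15, and 89 of 90 pairs across the sides were negative.

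**Figure D4:**
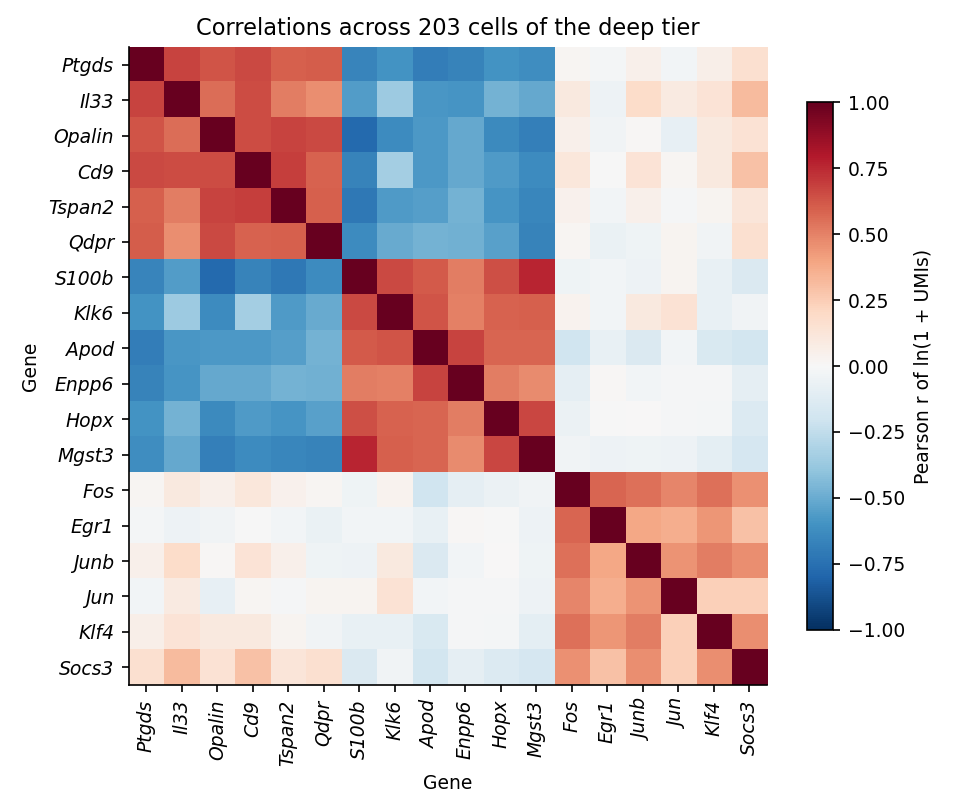
Pearson correlation of ln(1 + UMIs) between 18 genes across the 203 cells of the deep tier, each thinned to 8015 UMIs; red is positive and blue negative. A block from Ptgds to Qdpr and a block from S100b to Mgst3 oppose each other (S100b with Opalin, r = -0.78). The block from Fos to Socs3 is paler against both, with r of up to 0.32 (Il33 with Socs3).

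Mean levels changed along this range, and myelin genes took unequal part in the change. The 203 deep cells were divided by their Klk6 UMIs at equal depth into 94 cells with 0, 33 with 1 to 3, 26 with 4 to 9 and 50 with 10 or more. In this order mean Ptgds was 59.9 UMIs per cell (58.3 to 61.4), 20.5, 9.65 and 4.68 UMIs (4.10 to 5.32). Opalin was at 14.6, 10.6, 6.08 and 4.26 UMIs, and Il33 at 2.78, 1.73, 2.00 and 0.54 UMIs. The levels of both Ptgds and Opalin were thus lower at every step, and that of Il33 was not. S100b went the other way with 0.957, 3.76, 10.2 and 12.8 UMIs. Medians differed from these means: with 4 to 9 Klk6 UMIs that of Ptgds was 1.5. The S100b median was 12.5 with 4 to 9 Klk6 UMIs and 9.5 with 10 or more. Whether levels change gradually or the groups mix distinct kinds of cells was not tested. Several of these genes were picked by their correlation with Ptgds or Klk6. Apod had 13.95, 20.7, 27.3 and 35.4 UMIs, and Hopx 0.553, 1.09, 2.12 and 4.70 UMIs. Among genes with other roles, the transferrin gene Trf had 45.05, 54.9, 58.9 and 73.2 UMIs. Mag stayed between 28.3 and 30.8 UMIs, Cnp between 46.6 and 47.6, Mog between 24.5 and 28.3, and Mbp between 57.2 and 67.2 UMIs. Other genes of the myelin list were lower toward high Klk6, as Opalin was. Mal had 72.2 UMIs in cells without Klk6 and 50.2 in cells with 10 or more, and Tspan2 17.1 and 7.08. Pmp22, a myelin protein gene best known from peripheral nerve, and Hapln2, which links the matrix at nodes, were higher, with 2.99 and 6.20 and with 3.45 and 5.90 UMIs. Klk8, a related protease gene, gave 1 UMI in all 610 cells.

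**Figure D5:**
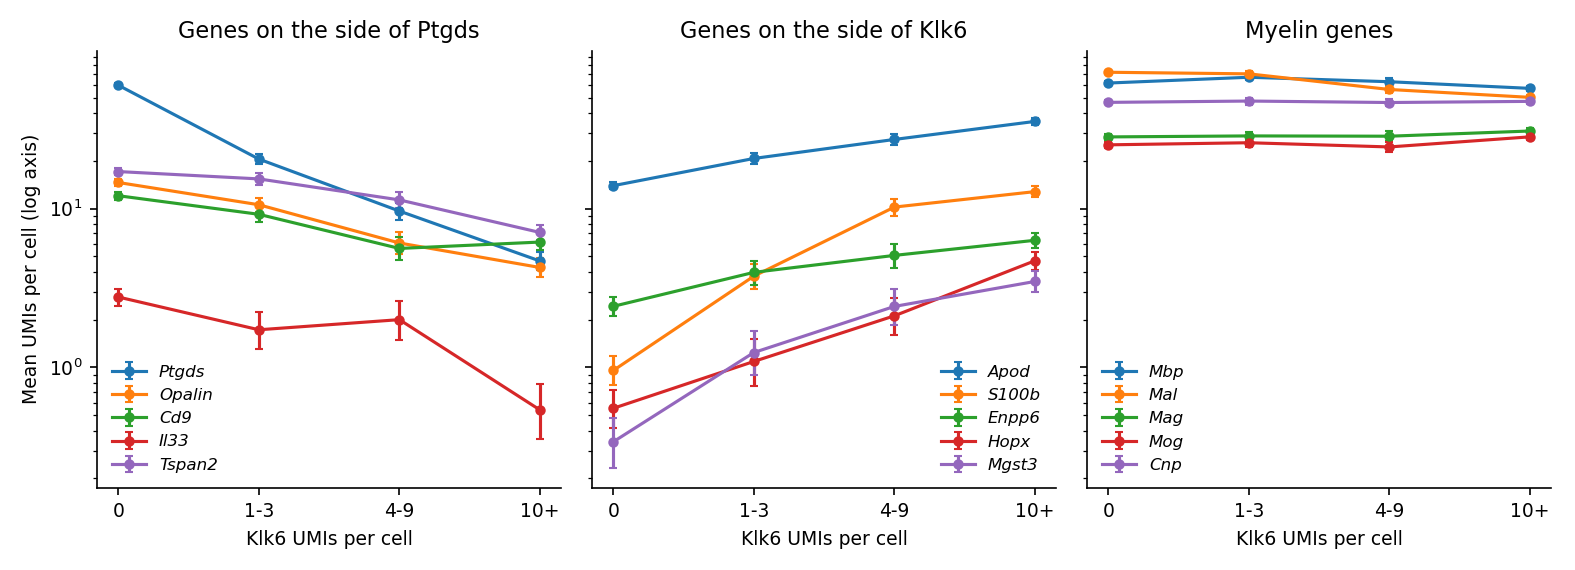
Mean UMIs per cell (log axis) in 203 cells of the deep tier, thinned to 8015 UMIs and divided by Klk6 UMIs (94, 33, 26 and 50 cells), for genes on the side of Ptgds, genes on the side of Klk6 and 5 myelin genes; bars are 95% Poisson intervals that cover counting error only. Ptgds goes from 59.9 to 4.68 UMIs and S100b from 0.957 to 12.8 UMIs, while Mag stays between 28.3 and 30.8 UMIs.

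Both ends were found at every depth. At 1500 UMIs, Klk6 was detected in 24.5% of the shallow, 30.5% of the middle and 36.9% of the deep tier. The mean of Ptgds was 4.42, 5.61 and 6.47 UMIs. In each tier, cells with Klk6 held fewer Ptgds UMIs than cells without: 1.26 and 5.45 in the shallow, 0.952 and 7.66 in the middle, and 1.63 and 9.30 in the deep tier. In summed CPM, 6 of the 10 genes of the Klk6 side were at least 2-fold higher in the deep tier than in the shallow one, with ratios from 1.21 for Enpp6 to 3.93 for Uchl1. On the Ptgds side 0 of 10 were, with ratios from 0.90 for Jph4 to 1.99 for Qdpr. Of all genes tested, 14.8% were at least 2-fold higher in the deep tier. The genes of both sides were picked by their correlations in the deep tier, so these counts are a description. Klk6 itself had a ratio of 2.64 and Ptgds one of 1.18.

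A second source of spread, only weakly tied to this range, was a set of immediate early genes, which cells switch on within minutes of a stimulus. Many of them encode transcription factors. Fos had a Fano factor of 4.40 at a mean of 0.508 UMIs. At 1500 UMIs, 486 of the 610 cells (79.7%) held 0 Fos UMIs, 85 held 1 or 2 and 39 held 3 or more. Egr1 was found in 1.85% of the cells without Fos, in 15.3% of those with 1 or 2 and in 43.6% of those with 3 or more. Junb was found in 4.94%, 28.2% and 41.0%, and Klf4 in 2.88%, 8.24% and 38.5%. In the 39 cells of the last class, 17 were in the shallow, 10 in the middle and 12 in the deep tier. In the deep tier Fos correlated with Egr1 (r = 0.58), Fosb (0.58), Klf4 (0.55), Junb (0.55), Btg2 (0.54), Jun (0.49) and Socs3 (0.46). All 36 pairs among 9 early and heat shock genes had positive r. These genes were chosen after the values were seen, most of them as genes close to Fos, so the signs are a description. The median r between these genes and the Ptgds side was 0.02, and -0.04 with the Klk6 side. Single pairs ran from -0.11 to 0.32 with the Ptgds side, where 50 of 90 were positive. With the Klk6 side they ran from -0.22 to 0.15, and 68 of 90 were negative. The stress gene Hspa1a was found in 20.5% of the cells with 3 or more Fos UMIs and in 2.88% of those without. Before thinning Fos was found in 30.7% of the 610 cells and in 43.1% of OPCs, with 331.6 and 951.4 CPM, so that the presence of Fos by itself is not above the level in OPCs. Atf3 gave 5 UMIs in all 610 cells.

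Promoters of 3 early genes are shown, that of Fos because several early RNAs moved with it between cells. Those of Btg2 and Dusp1 are the 2 whose windows held the letters marked below. Dusp1 was found in 1.85% of the cells without Fos and in 15.4% of those with 3 or more Fos UMIs. The printed windows hold the 250 bases before the start on GRCm38.p6 (RefSeq), 5′ to 3′, and capitals mark the 8-letter cyclic AMP element.
Fos: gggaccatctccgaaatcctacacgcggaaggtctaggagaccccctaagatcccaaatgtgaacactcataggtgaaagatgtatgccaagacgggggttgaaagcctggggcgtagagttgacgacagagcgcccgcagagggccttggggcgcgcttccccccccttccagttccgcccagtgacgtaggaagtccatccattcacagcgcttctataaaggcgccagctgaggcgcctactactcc
Btg2: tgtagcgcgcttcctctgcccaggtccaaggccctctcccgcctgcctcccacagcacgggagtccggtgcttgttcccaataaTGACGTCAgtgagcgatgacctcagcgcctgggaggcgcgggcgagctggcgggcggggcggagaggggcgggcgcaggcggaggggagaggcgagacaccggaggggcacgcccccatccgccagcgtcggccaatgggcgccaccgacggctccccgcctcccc
Dusp1: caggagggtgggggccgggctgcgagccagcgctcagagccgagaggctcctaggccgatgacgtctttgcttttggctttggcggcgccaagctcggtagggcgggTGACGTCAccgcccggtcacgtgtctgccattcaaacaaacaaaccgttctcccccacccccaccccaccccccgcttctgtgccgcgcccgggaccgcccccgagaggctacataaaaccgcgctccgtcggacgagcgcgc
These are chr12:85473640-85473889 on the plus strand for Fos, chr1:134079156-134079405 on the minus strand for Btg2, and chr17:26508473-26508722 on the minus strand for Dusp1. The letters TGACGTCA read the same on both strands. The windows searched, here and for Ptgds, also held the 50 bases after the start. Of 19 early genes with such a window, 2 held them, Btg2 and Dusp1, and 0 held the AP-1 letters, against 1.79% and 5.20% of all windows. The Fos window held neither set of exact letters, and variants of both elements were not searched.

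Complement gene C4b varied between cells as well. Its RNA, for complement component 4, had a Fano factor of 4.03 and went with Neat1 (r = 0.45) across the 610 cells. In the deep tier it went with Cd9 (0.65), with the protease inhibitor Serpina3n (0.48) and with Cebpd (0.43), and against Gpm6b (-0.57). C4b was thus not apart from the range above. Cd63 (0.45) and Tspan2 (0.42) of the Ptgds side also went with it, and Ldhb (-0.45) and Uchl1 (-0.42) of the Klk6 side against it. With Ptgds itself r was 0.24, and with Klk6 0.07. C4b was in 69.5% of the cells and in 87.9% of the OPCs, so its presence is likewise not above the level in OPCs. H2-D1, an MHC class I heavy chain, stood at 136.3 CPM and was in 30.7% of the cells and 41.4% of the OPCs, while Tap1 and Psmb8, which prepare its peptides, were at 0 UMIs.

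Clustering of the 610 cells alone gave 6 clusters, which followed depth and the range from Ptgds to Klk6. Their leading genes are those that parted the cells and are given as a description. Cluster 2 (123 cells, median 9271 UMIs) led with Ptgds at 5.16-fold and Il33 at 5.15-fold over the other cells. Cluster 5 (38 cells, median 14495.5 UMIs) led with the tubulins Tubb2b and Tubb2a and with Lix1, Rab37 and Nkx2-9, and held most Klk6 (a mean of 3 UMIs at 1500) and, at that depth, 0 Il33 UMIs. Its Tubb2b stood at 133.8 CPM against 0.90 CPM elsewhere. Cluster 3 (92 cells) was deep too, with Gstm1 at 2.37-fold as its first gene and S100b at a mean of 1.23 UMIs. Cluster 1 (133 cells, median 2355 UMIs) led with Agrn and Ddx17 at 8.75-fold and 5.83-fold, and 113 of its cells were in the shallow tier. Cluster 4 (46 cells) had the highest mitochondrial share, a median of 15.2%, with Cbx7 and Pan2 in front. At least 2 astrocyte markers were held by 26.3% of the cells of cluster 5, 21.7% of cluster 4, 16.3% of cluster 2, 13.04% of cluster 3, 7.30% of cluster 0 and 6.77% of cluster 1. These shares used all UMIs of a cell, so they also depend on depth. At 1500 UMIs, 14 of the 610 cells held at least 2 astrocyte markers. The astrocyte gene Gfap had a mean of 0.217 UMIs at 1500 in cluster 4, at most 0.0488 in the others and 0 in cluster 5. The part of these RNAs in the clusters was not tested. Cluster 0 (178 cells) had no gene over 2.44-fold. When the UMIs were split at random in 2 parts, with clusters built from one and levels read from the other, other clusters with partly other leading genes resulted. Of their 30 leading genes 21 were at least 2-fold in the other part and all 30 were over 1, with a median of 2.99-fold where the clusters above had 4.61-fold.

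Cells chosen by the same rule in the injured library, 138 oligodendrocytes with a median of 14137 UMIs, were set beside the 610. Injury, library and depth cannot be told apart in this comparison. Of 8469 genes with at least 50 summed UMIs, 3.53% were at least 2-fold higher in the uninjured cells and 6.29% at least 2-fold lower. In cells under 8000 UMIs the balance turned, with 647 of 5019 genes higher and 312 lower, in place of 299 and 533. It also turned with both libraries thinned to 1500 UMIs, with 279 higher and 174 lower, and without cells holding markers of other types, with 510 higher and 382 lower. With each cell given equal weight 471 were higher and 541 lower. The myelin list was nearly level, with 1 of 17 genes higher, Omg at 3.01-fold, and 1 lower, Gjb1. Mag stood at 4070.2 CPM in uninjured and 3710.1 CPM in injured cells, and Mbp at 7811 and 5546 CPM.

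Cholesterol genes were higher in the uninjured nerve. Of 25 lipid and cholesterol enzymes tested 14 were at least 2-fold higher in the uninjured cells and 0 lower, with a median of 1.71 on the log2 scale, where the median of all genes was -0.09. Hmgcs1 stood at 1531 CPM in uninjured and 139.2 CPM in injured cells, a ratio between 9.80 and 12.4 by its interval. Insig1, a sensor of sterols, had a ratio of 9.27 (7.04 to 12.4). In cells under 8000 UMIs 19 of 24 were higher and 1 lower. Lower in uninjured cells were Apoe, a lipid carrier, with 80.7 and 4133 CPM, Klk6 with a ratio of 0.22, Il33 with 0.15, H2-D1 with 0.21 and Apod with 0.37. Klk8 (1 UMI against 1090), Steap3, Col6a1 and Atf3 had the lowest ratios of those reported. Among the highest were those of Fads1, Unc13c, Paqr7 and the globin gene Hbb-bs. Unc13c gave 246 UMIs in the uninjured and 0 UMIs in the injured cells. Hbb-bs is a red blood cell gene and gave 73 UMIs in the 610 cells. Immediate early genes had 7 of 17 lower and 0 higher in the uninjured cells, with Fos at 331.6 and 953.1 CPM. Ptgds stood at 3704.5 and 4184 CPM, a ratio of 0.89. The microglia and macrophage markers made up 0.0054% of UMIs in uninjured and 0.0180% in injured cells, and the astrocyte markers 0.0189% and 0.00742%. Their part in these differences was not tested.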

How the data were processed

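Cells of 2 libraries, from uninjured nerves and nerves after ONC, were typed, filtered and normalized by the authors, who deposited natural log values (NE), ln(1 + 10000 × UMIs of a gene / UMIs of the cell), for 31053 gene names. Per the submitters' processing notes, Cell Ranger 1.3, bcl2fastq 2.17.1.14, Seurat 4.0.3 and build mm10 were used. UMIs were recovered by reversing the logarithm and dividing by the lowest value above 0 in the same cell, and were whole within 0.001 in 1369 of 1369 cells. The combined table repeats the same cells and was not used.

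Levels are CPM of summed UMIs with exact Poisson intervals, shares have exact binomial (Clopper-Pearson) intervals, ratios of CPM exact conditional intervals, all at 95% and for counting error only. Cells of 1 library are not replicates, so no p-value was computed. Cells were thinned without replacement to 1500 UMIs. Clusters came from Seurat 5.3.0 (R 4.3.3) with 2000 variable genes, 10 principal components and resolution 0.8, after regressing out sex genes, cell cycle and mitochondrial share. Correlations are Pearson's r of ln(1 + thinned UMIs). Scrublet was run through scanpy 1.11.5. The other steps used scipy 1.17.1, pandas 2.3.3 and numpy 2.4.6 under Python 3.11.15 and were tested on simulated data. Coordinates and lengths are from GENCODE M21 (GRCm38), in which 30438 of the gene names matched.

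Named were the 5 markers, the 20 genes of highest CPM, the 15 of highest Fano factor, the 5 leading genes of each cluster found in at least 25% of its cells, the 5 highest and lowest ratios of each comparison, and list members, except a few genes that are not reported here. The cells, the lists and these rules were chosen with earlier results of these data known. The division by Klk6 or Fos UMIs, the depth of 8015 UMIs the genes of the 2 sides and any other gene named were chosen after seeing the values.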

Additional observations from a re-analysis of the deposited data

How the results depend on the processing

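Some values kept their size under the alternatives and others moved. The number of cells was 700 at 1000 UMIs or more and 555 at 2000 or more. The myelin share of 8.34% became 7.52% with cells weighted equally, 8.18% without the deepest 5% of cells, 8.29% without the 91 cells holding at least 2 markers of another cell type (astrocyte, microglia, endothelial, pericyte or neuron, the Schwann cell list left aside) and 8.40% at 2000 UMIs or more. The genes with a Fano factor over 2 numbered 46 to 57. Clusters numbered 10 at resolution 1.6 and 4 to 5 under the other alternatives. With at least 200 summed UMIs fewer genes were tested, and the genes called fell to 562 higher and 264 lower between the deep and the shallow tier, to 463 and 324 against the shallower cells, and to 132 and 228 against the injured cells. With cells weighted equally, 726 genes were lower than in the shallower cells and 471 higher than in the injured ones, with 541 lower. Against injured cells, thinning both to 1500 UMIs left 279 genes higher and 174 lower of 3752 tested, the limit of 8000 UMIs gave 647 higher and 312 lower, and leaving out cells with markers of another cell type, added after seeing the data, gave 510 higher and 382 lower. In these 3 settings more genes were higher than lower, against 299 higher and 533 lower. The cause was not tested where fewer genes tested do not give it. Markers of another cell type were called on all UMIs of a cell, so that setting also depends on depth. Male cells numbered 278 with at least 2 UMIs for presence. Of 110 ratios of named genes under the alternatives, 102 lay within the main interval and 0 changed direction. These genes were picked for extreme ratios and some have wide intervals, so this count says little about other genes. The correlation of Ptgds with Klk6 in the deep tier was -0.60 without cells holding markers of another cell type and -0.60 without cells marked by Scrublet. The alternatives of the comparison of female with male cells were not run, since 0 cells were female. No paired analysis was possible because each condition has 1 library.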

Other observations

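The cytoskeleton and transport genes gave 2.69% of the UMIs of the 610 cells, and 15 of the 18 were found in at least 50% of them. Tuba1a, an alpha tubulin, stood at 2301 CPM, and the septins Sept7 and Sept4, which the deposited table writes as 7-Sep and 4-Sep, at 2099.7 and 1733 CPM. Septins form a scaffold in the innermost myelin layer. Tuba1a and Stmn1 were at 2301 and 3225 CPM in the 610 cells and at 867.9 and 1408.5 CPM in the injured cells of the same rule. Trophic, synaptic and receptor genes gave 0.197% of UMIs, led by Gpr37 at 851.4 CPM, Lgi3 at 302.3 CPM and Fgfr2 at 282.5 CPM. Enpp6, which marks newly forming oligodendrocytes in other settings, was in 72.5% of these mature cells at 531.0 CPM and in 1.72% of OPCs. The 10 markers of newly formed oligodendrocytes, Enpp6 among them, made up 0.112% of UMIs here and 0.636% in those cells.

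In the deep tier some genes owed a high Fano factor to a few cells. Thap1 had a Fano factor of 23.9 with a median of 0 UMIs and 41 UMIs in the highest cell, Lypd1 one of 21.1 with 22 UMIs in the highest cell, and Rnase4 one of 15.7 with 21 UMIs in the highest cell. These genes were singled out after their values were seen.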
